A study of Homo sapiens with 54 samples.

Results

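The receptors of the EGFR family, their ligands and a feedback inhibitor did not move as 1 block when MDA-MB-231 cells were given Compound Kushen Injection (CKI) or mixtures of its components. ERBB2 and the ligand gene BTC were lower than in untreated cells in all 15 treated groups. EGFR and ERBB3 were higher in 14 of the 15. The ligand genes AREG, HBEGF and TGFA had their highest mean with whole CKI in each set of libraries. ERRFI1, the inhibitor, was at 0.849 to 1.14 of its untreated level with CKI and between 1.36-fold and 4.12-fold higher with every mixture. The 9 genes described are the receptors EGFR, ERBB2 and ERBB3, the ligands AREG, EREG, HBEGF, TGFA and BTC, and ERRFI1. They were chosen by name from the 27978 genes of the count table, and earlier results of these data were known when they were chosen.

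EGF family ligands are made as membrane proteins and are released by proteases at the cell surface. A released ligand binds EGFR or a relative, the receptors pair and phosphorylate each other, and the signal runs through RAS and the ERK kinases to genes for growth and movement. ERBB2 has no known ligand and acts as a partner, ERBB3 binds neuregulins and signals through its partners, and ERRFI1 (also named MIG6) binds the active receptor kinase and shuts it off. MDA-MB-231 is a line of triple-negative breast cancer, a type in which ERBB2 is not amplified and EGFR is often abundant.

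RNA was sequenced from 54 libraries in 18 groups of 3, which the design text calls biological replicates, all from the human breast cancer line MDA-MB-231 grown in medium with serum. In batch 1, cells were untreated (UT) or given CKI, N-OmtOspc (label N_2, CKI without oxymatrine and oxysophocarpine), N-MacOmtOspc (label N_3, CKI also without macrozamin), OmtOspc (label OO, only oxymatrine and oxysophocarpine) or MacOmtOspc (label MOO, those with macrozamin) for 24 or 48 h. In batch 2, cells were untreated or given CKI, N-Mac, N-Nme, N-Omt or N-Tri (CKI without macrozamin, N-methylcytisine, oxymatrine or trifolirhizin) for 48 h. CKI was given at 2 mg/ml and each mixture at the matching amount, so 1 dose of 1 cell line was studied, and the single removals and the other mixtures share neither a batch nor, at 24 h, a time.

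Libraries held between 17673537 and 26138924 counted reads (median 22568666.5). Levels are given in CPM, the reads of a gene as a share of all counted reads of the library on the usual per-million scale, after scaling by TMM factors within each set of 18 libraries (24 h, 48 h in batch 1, 48 h in batch 2), and the factors lay between 0.804 and 1.108. The mesenchymal markers VIM (501 to 1570 CPM) and CD44 (331 to 703 CPM) were high in every library, and ESR1 and PGR had at most 8 and 2 counts. FOXA1 had 0 to 64 counts and GATA3 105 to 817, and marker levels moved with treatment. The sum of VIM and CD44 was 1820 to 1970 CPM in untreated and 1050 to 1120 CPM in CKI libraries at 24 h, 1590 to 1650 and 1090 to 1170 CPM at 48 h in batch 1, and 2090 to 2240 and 1190 to 1270 CPM in batch 2. The sum of the 4 luminal markers was 31.6 to 32.7 CPM in untreated cells, 9.85 to 16 CPM with CKI and 43.1 to 44.7 CPM with N-OmtOspc at 24 h. The sum of 5 fibroblast markers was 28.2 to 31.8 CPM, 22.9 to 38.6 CPM and 51.5 to 74.3 CPM in the same groups. The part of these marker changes in the results was not tested. 3 libraries of 24 h lay apart, CKI replicate 1, N-MacOmtOspc replicate 2 and OmtOspc replicate 2. Over 509 genes that differed by over 2-fold between untreated cells of the batches at 48 h, their deviation from the other libraries of their group followed that batch difference with slopes of 0.664, 0.659 and 0.599, against -0.401 to 0.181 in the other 33 libraries of batch 1. Their column names carry no replicate number, and their part in a result was tested only by leaving them out. Replicates of a group were also compared by the chi-square of their counts per gene. N-OmtOspc replicate 3 at 24 h differed from its fellows by 84.9 and 131.1, against 11.2 between those, and N-MacOmtOspc replicate 2 at 48 h by 44.3 and 58.5, against 12.5. These 2 libraries were left out one at a time. Among the OmtOspc libraries of 24 h, replicate 1 differed most by this measure, by 78.1 from replicate 2 and 49 from replicate 3. Replicates 2 and 3 differed by 31.7, so leaving out replicate 2 kept a pair that differed by 49.

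The genes of EREG, AREG and BTC lie side by side on chromosome 4. The RefSeq annotation of GRCh38.p14 has 0 protein-coding genes between neighbours. Their promoters are shown because their directions against untreated cells differed. EREG was higher in 7 treated groups and lower in 1, AREG higher in 10 and lower in 2, and BTC lower in all 15. The 250 bases before the annotated start are at chr4:74364895-74365144 (plus strand), chr4:74444886-74445135 (plus strand) and chr4:74794524-74794773 (minus strand). Those of EGFR, at chr7:55018767-55019016 (plus strand, the first of 2 starts in the table), and of ERRFI1, at chr1:8026310-8026559 (minus strand), are shown because both genes rose with every single removal. ERBB3, AREG and HBEGF rose with every single removal too. The count files use hg19, and these coordinates are of GRCh38.p14. Each sequence is written 5′ to 3′ on the gene's strand, and capitals mark matches to 5 motifs searched on both strands, which did not overlap each other here.
EREG: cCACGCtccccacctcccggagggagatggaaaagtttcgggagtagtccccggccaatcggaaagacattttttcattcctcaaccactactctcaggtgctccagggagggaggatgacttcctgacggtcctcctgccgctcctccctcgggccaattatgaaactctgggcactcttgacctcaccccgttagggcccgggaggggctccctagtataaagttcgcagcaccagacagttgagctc
AREG: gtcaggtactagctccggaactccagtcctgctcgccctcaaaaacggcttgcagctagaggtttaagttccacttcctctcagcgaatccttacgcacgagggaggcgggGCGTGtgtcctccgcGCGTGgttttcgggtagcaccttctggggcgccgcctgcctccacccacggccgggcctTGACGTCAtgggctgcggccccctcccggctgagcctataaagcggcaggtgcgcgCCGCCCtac
BTC: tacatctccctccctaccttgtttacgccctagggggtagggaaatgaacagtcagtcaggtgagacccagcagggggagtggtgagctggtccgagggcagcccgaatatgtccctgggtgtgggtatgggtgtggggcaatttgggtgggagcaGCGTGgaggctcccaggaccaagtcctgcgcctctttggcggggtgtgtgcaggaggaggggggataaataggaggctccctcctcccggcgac
EGFR: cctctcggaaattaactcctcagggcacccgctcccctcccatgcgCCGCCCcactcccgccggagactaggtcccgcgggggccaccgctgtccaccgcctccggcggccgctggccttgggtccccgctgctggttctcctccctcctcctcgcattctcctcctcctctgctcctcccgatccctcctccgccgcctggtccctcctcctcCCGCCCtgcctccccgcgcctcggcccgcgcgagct
ERRFI1: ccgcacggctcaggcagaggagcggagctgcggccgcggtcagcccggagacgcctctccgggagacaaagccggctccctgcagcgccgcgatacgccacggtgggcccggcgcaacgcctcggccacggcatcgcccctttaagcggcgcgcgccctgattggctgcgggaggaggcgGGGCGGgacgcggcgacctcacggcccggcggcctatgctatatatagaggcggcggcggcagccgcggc

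The motifs were AP-1 (TGANTCA), CRE (TGACGTCA), the core of the aryl hydrocarbon receptor element (GCGTG), the SP1 core (GGGCGG) and an E-box (CACGTG), which 6.57%, 1.65%, 32.2%, 42.6% and 6.34% of the 35116 RefSeq promoter windows of this length hold. The AREG promoter held a CRE 65 bases before the start, the GCGTG core at 139 and 124 bases and the SP1 core at 9 bases. EREG and BTC held 1 GCGTG core each, at 249 and 94 bases. EGFR held the SP1 core at 204 and 36 bases and ERRFI1 at 70 bases. The second EGFR start, whose sequence is not shown, held AP-1 at 232 and 136 bases and no SP1 core. A match is a run of letters and says nothing of binding. A RefSeq promoter entry was found for 8 of the 9 genes, ERBB3 being the exception.

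Levels were also divided by exon length, to set the genes beside each other. Lengths joined the exons of all protein-coding transcripts of a gene in GENCODE, not in the annotation used for counting. The order of the genes is therefore approximate. Per kilobase of exon, AREG had the highest level in untreated cells at 24 h, with 139 CPM per kb. ERRFI1 followed at 52.3, HBEGF at 32, ERBB2 at 17.7 and TGFA at 11.8 CPM per kb. EGFR was at 6.7, EREG at 2.26, BTC at 1.03 and ERBB3 at 0.527 CPM per kb, so BTC and ERBB3 were the least abundant transcripts of the set. RefSeq lists AREGB as another name of AREG, and since hg19 carries a near-identical copy of that gene, reads may have been split or lost and the AREG level is uncertain. Reads of EGFR and of the overlapping antisense gene EGFR-AS1 could not be told apart, because the strand setting of the counting is not given in the sources used here.

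Of the 9 genes, 7 were DE after 24 h of CKI (5 higher and 2 lower), where 30% of all 15191 genes tested were DE (15.3% higher and 14.8% lower). DE means an adjusted p under 0.05 in edgeR's quasi-likelihood test after Benjamini-Hochberg adjustment over all genes. After 48 h of CKI, 8 genes were DE in batch 1 (6 higher, 2 lower), beside 54% of 15513 genes (27% higher and 27% lower), and 9 in batch 2 (5 higher, 4 lower), beside 66.4% of 15115 genes (32.3% higher and 34.2% lower). The median log2 fold change of the 9 genes with CKI was 0.82, 0.65 and 0.25 in the 3 sets, beside 0.020, 0.0080 and -0.0073 over all genes tested.

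With N-OmtOspc 8 genes were DE at 24 h (62.1% of all genes) and 8 at 48 h (76.6%). N-MacOmtOspc gave 7 (45% of all genes) and 7 (71.1%), OmtOspc 7 (16.7%) and 8 (57.8%), and MacOmtOspc 4 (10.5%) and 7 (51.2%). Of the single removals, N-Mac gave 8 (72.4% of all genes), N-Nme 7 (71.3%), N-Omt 9 (78.2%) and N-Tri 8 (72.2%). Over the 5 treated groups of a set, 33 of 45 tests were called at 24 h (73.3%, against 32.9% of the tests on all genes), 38 of 45 at 48 h in batch 1 (84.4% against 62.1%) and 41 of 45 in batch 2 (91.1% against 72.1%). The share among the 9 genes was thus above the background in each set, and least so at 48 h, when most genes moved. The 9 genes were chosen with earlier results of these data known, and the comparisons of a set share untreated libraries. The higher share is therefore a description and not a result about the family. In these bulk RNA measurements, fewer cells that make a transcript and less of it per cell cannot be told apart.

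**Figure D1:**
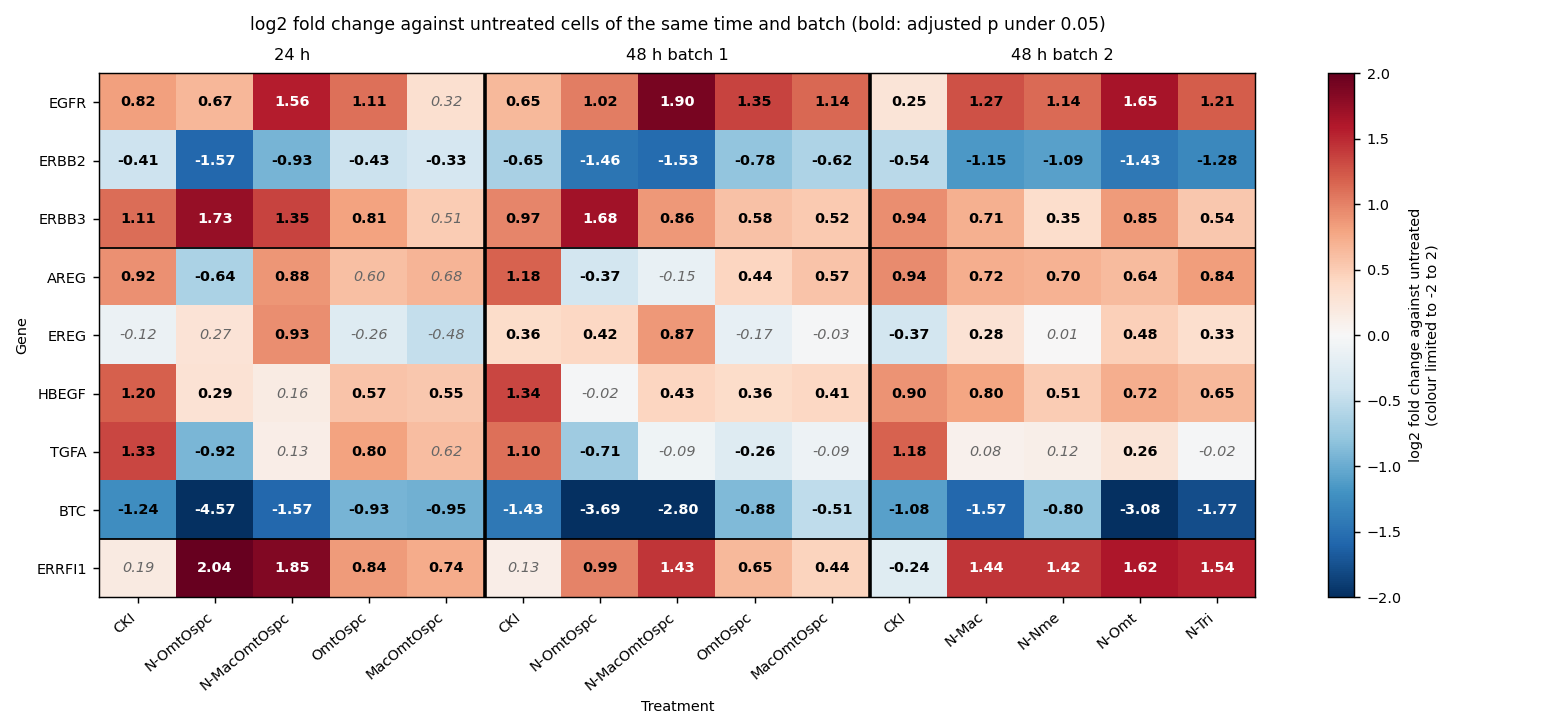
Log2 fold change of the 9 genes (vertical axis) in each treated group against untreated cells of the same time and batch (horizontal axis), with DE values in bold and colour limited to -2 to 2. ERBB2 and BTC were lower in all 15 groups, EGFR and ERBB3 higher in 14, and HBEGF at 24 h with N-OmtOspc changed sign when libraries were scaled by their totals.

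EGFR, the receptor of all 5 ligands described, rose in 14 of the 15 treated groups, by log2 fold changes from 0.25 to 1.90. In untreated cells its level was 63.1, 71.1 and 93.4 CPM at 24 h and 123, 92.1 and 89.6 CPM at 48 h in batch 1. After 24 h it was 167, 129.5 and 105 CPM with CKI, and the log2 fold change was 0.82 ± 0.26 (SE, adjusted p = 0.0254). The CKI libraries lay above the untreated ones without overlap, yet the call was lost without CKI replicate 1 (0.63, adjusted p = 0.117), without untreated replicate 1 (0.70, adjusted p = 0.108) and without untreated replicate 2 (0.77, adjusted p = 0.0845). N-MacOmtOspc gave 195, 253 and 226 CPM at 24 h, every library above every CKI library, with a log2 fold change of 1.56 ± 0.26 (SE, adjusted p = 0.000176). OmtOspc spread from 88.6 to 213 CPM and overlapped with untreated cells, with 1.11 (adjusted p = 0.00823), and MacOmtOspc at 72.7, 95.6 and 115 CPM was the 1 group not DE, with 0.32 (adjusted p = 0.518). The OmtOspc call was lost without its replicate 3 (0.87, adjusted p = 0.0578) or untreated replicate 1 (0.99, adjusted p = 0.0513). The N-OmtOspc value of 0.67 (adjusted p = 0.0345) missed the threshold without any 1 of its own replicates or without untreated replicate 1 or 2 (0.54 to 0.71), and was 0.36 (adjusted p = 0.287) with libraries scaled by their totals alone.

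At 48 h in batch 1 the order of EGFR was untreated, CKI, N-OmtOspc, MacOmtOspc, OmtOspc and N-MacOmtOspc, and of the neighbours in it N-OmtOspc and MacOmtOspc overlapped. CKI libraries were at 137, 168 and 174 CPM and N-MacOmtOspc libraries at 387, 439.6 and 311 CPM. The 2 groups did not overlap, and their log2 fold changes against untreated cells were 0.65 ± 0.12 (SE, adjusted p = 7.95e-05) and 1.90 ± 0.12 (SE, adjusted p = 3.7e-12). In batch 2 untreated cells were at 156, 143 and 169 CPM and CKI at 190.0, 184 and 184 CPM, a difference of 0.25 ± 0.054 (SE, adjusted p = 0.000126) that missed the threshold with all 54 libraries in 1 fit (0.25, adjusted p = 0.255). All 4 single removals lay far above both, from 339.9 CPM upward, with N-Omt highest at 501, 483 and 489 CPM and 1.65 ± 0.054 (SE, adjusted p = 6.87e-23).

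ERBB2, the partner receptor without a ligand of its own, fell in all 15 treated groups. Untreated cells held 98.0, 101 and 102 CPM at 24 h. With CKI it was 69.5, 81.8 and 75.1 CPM, a log2 fold change of -0.41 ± 0.091 (SE, adjusted p = 0.00275). N-OmtOspc gave 31.1, 33.2 and 36.9 CPM, the lowest group at 24 h, with -1.57 ± 0.094 (SE, adjusted p = 1.64e-09). No treated library reached the level of any untreated library of its set. The smallest fall, with MacOmtOspc at 24 h, was -0.33 (adjusted p = 0.0267) and missed the threshold whenever any 1 of the 3 MacOmtOspc or 3 untreated libraries was left out (-0.35 to -0.32).

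After 48 h in batch 1 the untreated level was 111, 108 and 115 CPM, against 73.6, 69.2 and 70.8 CPM with CKI and 38.3, 43.6 and 33.8 CPM with N-MacOmtOspc. The log2 fold changes were -0.65 ± 0.077 (SE, adjusted p = 3.7e-07) and -1.53 ± 0.081 (SE, adjusted p = 1.17e-13), and N-OmtOspc, with -1.46, overlapped with N-MacOmtOspc. In batch 2 the fall with CKI was -0.54 ± 0.061 (SE, adjusted p = 2.97e-09), from 94.0, 97.2 and 92.2 to 64.0, 61.5 and 69.2 CPM. With N-Omt it was -1.43 ± 0.064 (SE, adjusted p = 3.22e-19), at 35.9, 34.7 and 34.6 CPM, and the other 3 single removals lay between N-Omt and CKI at 36.2 to 46.5 CPM.

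ERBB3, the neuregulin receptor, was scarce, with 68 to 429 counts per library, and rose in 14 of 15 groups. At 24 h it was at 3.60, 4.44 and 3.71 CPM in untreated cells, 9.21, 7.75 and 8.48 CPM with CKI and 11.4, 16.6 and 11.3 CPM with N-OmtOspc. These 3 groups did not overlap, and the log2 fold changes were 1.11 ± 0.17 (SE, adjusted p = 0.000185) and 1.73 ± 0.17 (SE, adjusted p = 2.84e-07). MacOmtOspc, with 4.75, 5.95 and 6.04 CPM, lay above untreated cells too but was not DE, at 0.51 (adjusted p = 0.0758). At 48 h in batch 1 N-OmtOspc was again highest, 18.3, 17.8 and 18.0 CPM against 6.00, 6.34 and 4.48 CPM in untreated cells, with 1.68 ± 0.13 (SE, adjusted p = 1.2e-10). In batch 2 the order differed, with CKI (17.9, 18.0 and 16.9 CPM), N-Omt (16.9, 17.5 and 15.3 CPM) and N-Mac (12.2, 18.5 and 14.4 CPM) overlapping at the top. N-Nme was the lowest treated group at 12.6, 11.6 and 11.1 CPM, and its value of 0.35 (adjusted p = 0.00977) was lost without untreated replicate 1 (0.27, adjusted p = 0.0773).

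**Figure D2:**
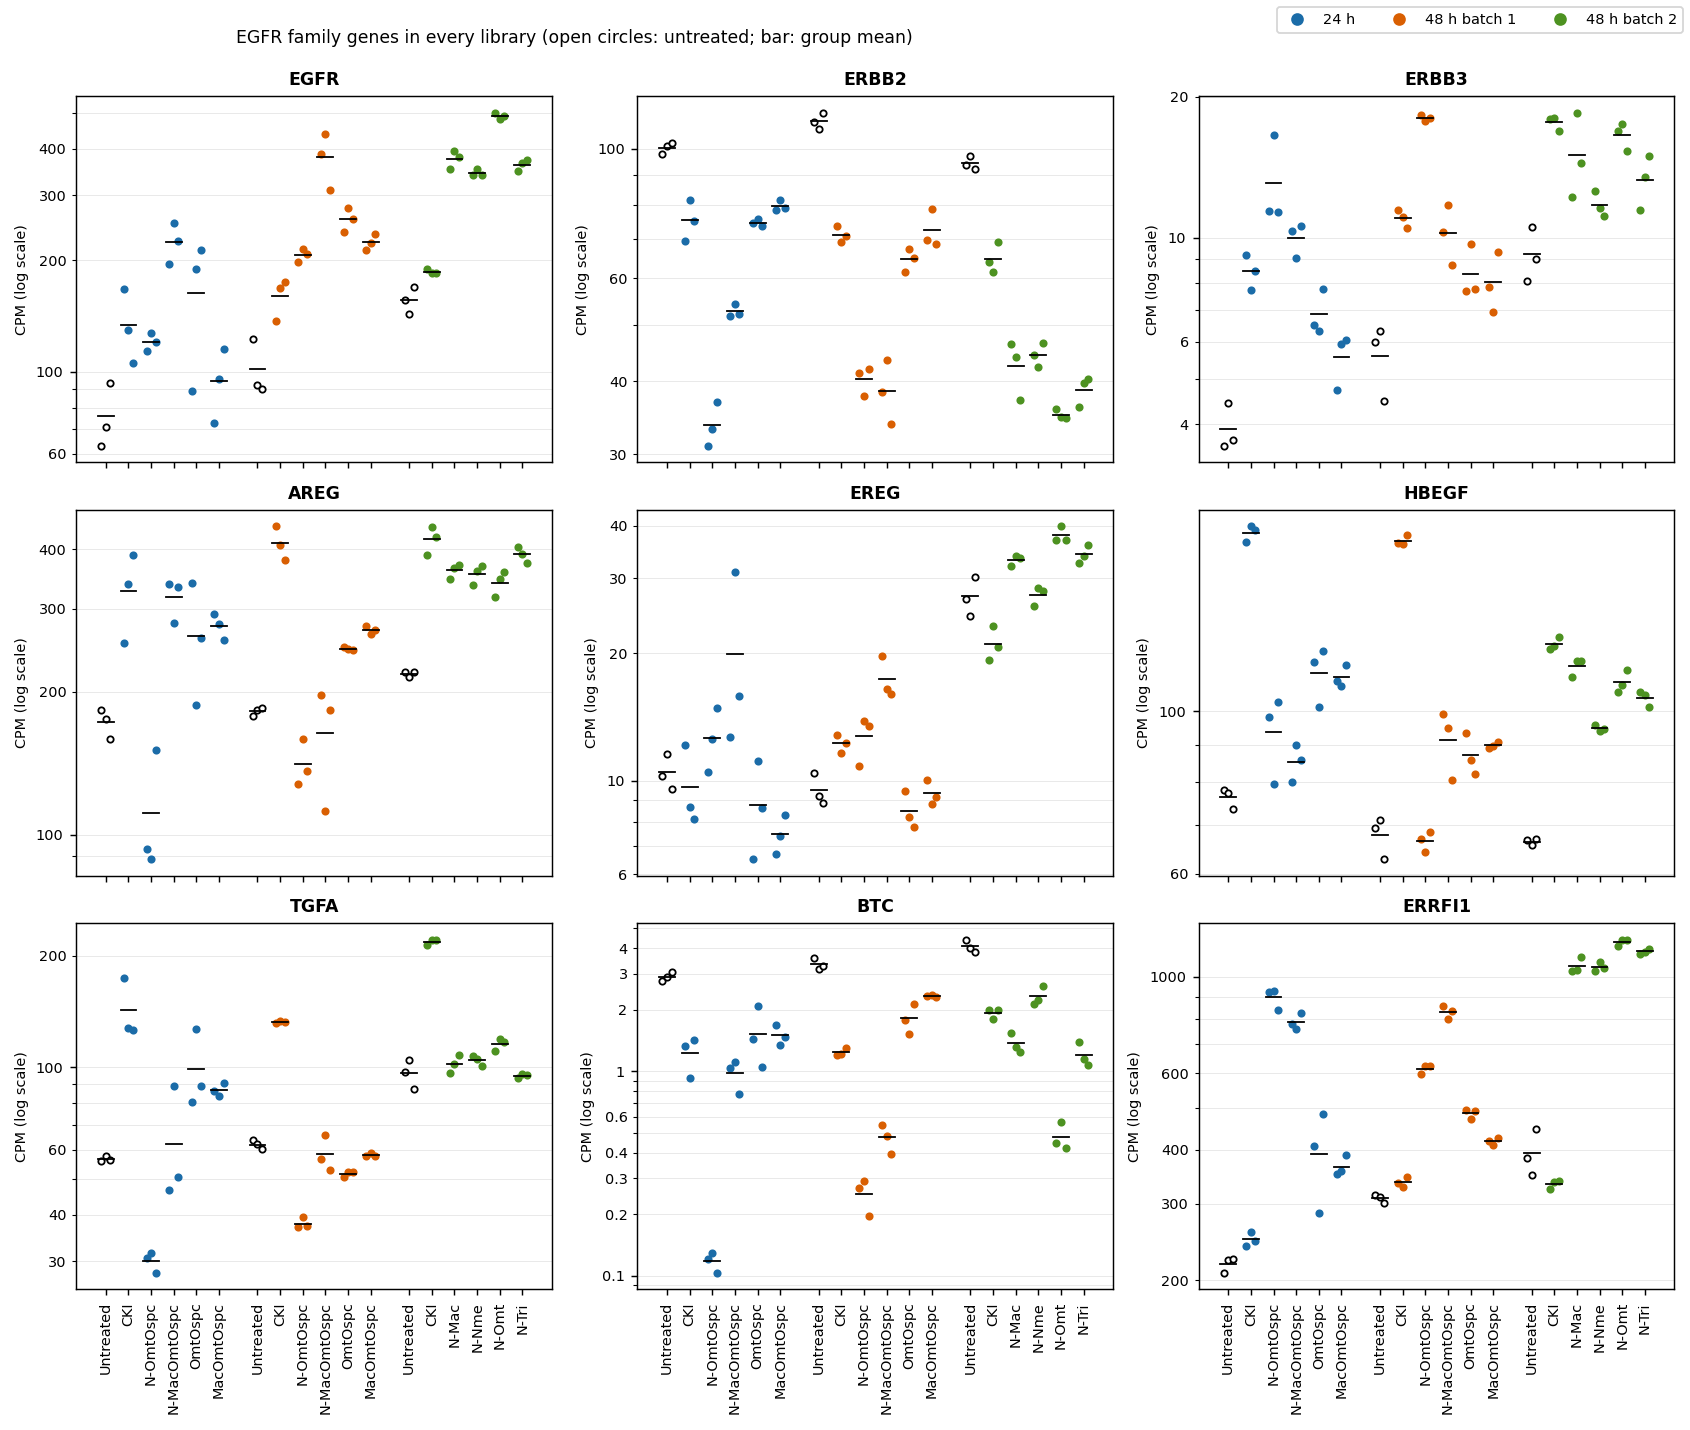
CPM of each gene (vertical log axis) in the 54 libraries by group (horizontal axis), with points for libraries, open for untreated cells, bars for means of 3, and colours for 24 h, 48 h batch 1 and 48 h batch 2. BTC fell to 0.104 to 0.13 CPM with N-OmtOspc at 24 h, and ERRFI1 lay between 1032 and 1218 CPM in every library of the 4 single removals.

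AREG encodes amphiregulin, a ligand of EGFR, and was higher with CKI and lower with N-OmtOspc in batch 1. At 24 h it was at 183, 176 and 159 CPM in untreated cells, 253, 338 and 389 CPM with CKI and 93.2, 88.8 and 151 CPM with N-OmtOspc. CKI lay above and N-OmtOspc below untreated cells without overlap, with log2 fold changes of 0.92 ± 0.21 (SE, adjusted p = 0.00406) and -0.64 ± 0.21 (SE, adjusted p = 0.0162). The fall missed the threshold without N-OmtOspc replicate 1 (-0.52, adjusted p = 0.078) or replicate 2 (-0.50, adjusted p = 0.0818), and was -0.92 (adjusted p = 0.00135) without replicate 3, the highest of the group and a library that stood apart. N-MacOmtOspc rose to 338, 279 and 333 CPM, by 0.88 (adjusted p = 0.00341). OmtOspc and MacOmtOspc missed the threshold at 0.60 (adjusted p = 0.0627) and 0.68 (adjusted p = 0.0538), and passed it at 0.80 (adjusted p = 0.00602) and 0.68 (adjusted p = 0.00983) without the 3 libraries that lay apart.

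At 48 h in batch 1 AREG was at 178, 184 and 185 CPM in untreated cells and 447, 408 and 380.3 CPM with CKI, a log2 fold change of 1.18 ± 0.13 (SE, adjusted p = 9.45e-08). N-OmtOspc was at 128, 159 and 137 CPM, below every untreated library, with -0.37 (adjusted p = 0.0123). This value became -0.31 (adjusted p = 0.0628) without N-OmtOspc replicate 1 and -0.30 (adjusted p = 0.0623) with library totals alone. N-MacOmtOspc, at 197, 112 and 183 CPM, overlapped with untreated cells and was not DE, at -0.15 (adjusted p = 0.3). Without its replicate 2, which stood apart with the lowest value, it was 0.058 (adjusted p = 0.481), and without replicate 1 it was DE at -0.30 (adjusted p = 0.0432). In batch 2 every treated library was above every untreated one, with CKI highest on average at 388, 445 and 426 CPM against 221, 215 and 220.1 CPM, a log2 fold change of 0.94 ± 0.055 (SE, adjusted p = 7.59e-16). The single removals gave 0.64 to 0.84.

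EREG, the epiregulin gene beside AREG, changed less. At 24 h untreated cells held 10.2, 11.6 and 9.55 CPM and CKI 12.1, 8.67 and 8.12 CPM, overlapping groups with -0.12 (adjusted p = 0.787). N-MacOmtOspc was the 1 group DE at 24 h, at 12.7, 31.1 and 15.8 CPM and 0.93 ± 0.27 (SE, adjusted p = 0.0114). Its replicate 2, which lay apart, held the highest value, and without it the log2 fold change was 0.44 (adjusted p = 0.104). Without all 3 libraries that lay apart it was 0.45 (adjusted p = 0.0347), about as small but DE, and MacOmtOspc was then DE too, at -0.48 (adjusted p = 0.0396). At 48 h in batch 1 N-MacOmtOspc was again highest, 19.7, 16.5 and 16.0 CPM against 10.4, 9.17 and 8.83 CPM, with 0.87 ± 0.11 (SE, adjusted p = 3.91e-07). CKI gave 0.36 (adjusted p = 0.00994) there, at 12.8, 11.6 and 12.2 CPM. In batch 2, where untreated cells held 26.9, 24.5 and 30.3 CPM, CKI was lower without overlap at 19.3, 23.1 and 20.6 CPM, with -0.37 ± 0.076 (SE, adjusted p = 7.47e-05). The direction with CKI at 48 h was thus opposite in the batches, but with all 54 libraries in 1 fit neither value passed the threshold (0.36, adjusted p = 0.113, and -0.38, adjusted p = 0.0732). That fit also left N-Mac (0.27, adjusted p = 0.18) and N-Tri (0.36, adjusted p = 0.0723) not DE. N-Omt was highest at 36.9, 39.9 and 36.9 CPM, with 0.48 (adjusted p = 4.21e-07).

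HBEGF, which encodes heparin-binding EGF, a ligand of EGFR and ERBB4, rose most with whole CKI. Its level at 24 h was 78.1, 77.3 and 73.6 CPM in untreated cells and 170.3, 179 and 177 CPM with CKI, a log2 fold change of 1.20 ± 0.10 (SE, adjusted p = 1.1e-06). OmtOspc (117, 101 and 121 CPM) and MacOmtOspc (110.1, 108 and 116 CPM) lay between them without overlap with either, at 0.57 and 0.55. N-MacOmtOspc, at 0.16 (adjusted p = 0.224), was not DE. N-OmtOspc was DE at 0.29 (adjusted p = 0.0211), but with libraries scaled by their totals the value was -0.0083 (adjusted p = 0.955), so no direction is given for it. It also missed the threshold without N-OmtOspc replicate 1 or 3 or untreated replicate 3 (0.22 to 0.26).

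After 48 h in batch 1, CKI libraries held 169.6, 169 and 174 CPM and untreated ones 69.2, 71.0 and 62.8 CPM, a log2 fold change of 1.34 ± 0.073 (SE, adjusted p = 2.07e-12). N-OmtOspc, at 66.9, 64.3 and 68.4 CPM, overlapped with untreated cells and was not DE, at -0.024 (95% confidence interval -0.18 to 0.13, adjusted p = 0.772). The other 3 mixtures were all between 80.5 and 99 CPM, above the untreated libraries and far below CKI. In batch 2 the level was 66.6, 65.7 and 66.8 CPM in untreated cells and 122, 123 and 126 CPM with CKI, with 0.90 ± 0.046 (SE, adjusted p = 3.43e-17), and N-Mac came closest to CKI at 111, 117 and 117 CPM.

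TGFA, the gene of transforming growth factor alpha, another EGFR ligand, was also highest with CKI. At 24 h the libraries were at 55.8, 57.7 and 56.4 CPM untreated and 174, 127 and 126 CPM with CKI, a log2 fold change of 1.33 ± 0.21 (SE, adjusted p = 0.000213). With N-OmtOspc the level was 30.5, 31.6 and 27.9 CPM, below every untreated library, with -0.92 ± 0.21 (SE, adjusted p = 0.0013). OmtOspc at 80.4, 127 and 88.9 CPM was DE at 0.80 (adjusted p = 0.0149) and MacOmtOspc at 86.2, 83.7 and 90.8 CPM was not, at 0.62 (adjusted p = 0.0707). Without the 3 libraries that lay apart, MacOmtOspc gave 0.62 (adjusted p = 9.61e-05) and OmtOspc 0.58 (adjusted p = 0.000339), both DE. Left out singly, 3 libraries ended the OmtOspc call, its replicate 2 (0.58, adjusted p = 0.0837), untreated replicate 1 (0.79, adjusted p = 0.0577) or untreated replicate 2 (0.82, adjusted p = 0.0501). The highest value of OmtOspc and of N-MacOmtOspc (46.7, 88.8 and 50.7 CPM) belonged to the replicate that lay apart.

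At 48 h in batch 1 TGFA was at 63.5, 62.0 and 60.2 CPM in untreated cells, 131, 134 and 133 CPM with CKI and 37.0, 39.4 and 37.3 CPM with N-OmtOspc. The groups lay apart, and the log2 fold changes were 1.10 ± 0.066 (SE, adjusted p = 8.8e-12) and -0.71 ± 0.068 (SE, adjusted p = 3.31e-09). OmtOspc, higher than untreated cells at 24 h, was lower at 48 h with -0.26 (adjusted p = 0.00206), a value of -0.16 (adjusted p = 0.0375) with library totals and of -0.25 (adjusted p = 0.12) with all 54 libraries in 1 fit. N-MacOmtOspc, not DE at -0.087 (adjusted p = 0.253), was DE without its replicate 2, which stood apart (-0.18, adjusted p = 0.00864). In batch 2 CKI reached 213, 220.2 and 221 CPM against 97.1, 105 and 87.6 CPM, with 1.18 ± 0.054 (SE, adjusted p = 2.51e-18). Removing any of the 4 single components left a level close to untreated cells, from 93.8 to 119 CPM over the 12 libraries, and of these groups N-Omt was DE at 0.26 (adjusted p = 6.91e-05), though not with all 54 libraries in 1 fit (0.27, adjusted p = 0.0736).

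BTC, the betacellulin gene, a ligand of EGFR and ERBB4, fell in all 15 groups and was low throughout, with 2 to 107 counts per library. Untreated cells at 24 h held 2.76, 2.89 and 3.05 CPM and CKI libraries 1.33, 0.923 and 1.43 CPM, a log2 fold change of -1.24 ± 0.26 (SE, adjusted p = 0.00158). N-OmtOspc gave 0.12, 0.13 and 0.104 CPM, 6 counts in all 3 libraries against 193 in the untreated ones. This is a ratio of 0.0402 after scaling (exact 95% interval 0.0146 to 0.0891, for counting error only). At 48 h it was 17 counts against 227, a ratio of 0.0758 (0.0434 to 0.124), and N-MacOmtOspc was at 0.548, 0.486 and 0.395 CPM with -2.80 ± 0.22 (SE, adjusted p = 1.25e-10). No treated library reached an untreated library of its set. At 24 h OmtOspc was DE at -0.93 (adjusted p = 0.0172) and MacOmtOspc at -0.95 (adjusted p = 0.0196). The first call was lost without OmtOspc replicate 3 or untreated replicate 2 or 3 (-0.93 to -0.71), and the second without MacOmtOspc replicate 2 or 3 or any 1 untreated library (-0.99 to -0.88).

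In batch 2 BTC was at 4.40, 4.01 and 3.84 CPM in untreated cells and 1.99, 1.81 and 1.99 CPM with CKI, with -1.08 ± 0.16 (SE, adjusted p = 6.2e-07). N-Omt was lowest at 0.445, 0.563 and 0.421 CPM, 31 counts against 286 and a ratio of 0.117 (0.0783 to 0.17). N-Nme was the treated group nearest to untreated cells, at 2.13, 2.24 and 2.62 CPM and -0.80 (adjusted p = 2.64e-05). The falls beyond 2 on the log2 scale were in mixtures without oxymatrine, N-OmtOspc at 24 h (-4.57) and 48 h (-3.69), N-Omt (-3.08) and N-MacOmtOspc at 48 h (-2.80), while N-MacOmtOspc at 24 h, which also lacks it, gave -1.57.

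ERRFI1, the inhibitor of the receptor kinase, changed little with CKI and was higher with every mixture. At 24 h it was at 208, 222 and 224 CPM in untreated cells and 240.0, 258 and 246 CPM with CKI, which did not overlap but were not DE, at 0.19 (95% confidence interval -0.10 to 0.48, adjusted p = 0.326). N-OmtOspc gave 925, 929 and 839 CPM and N-MacOmtOspc 780.0, 758 and 825 CPM. Both were far above CKI, with 2.04 ± 0.14 (SE, adjusted p = 7.59e-09) and 1.85 ± 0.14 (SE, adjusted p = 1.07e-07). OmtOspc (407, 286 and 482 CPM) and MacOmtOspc (351, 356 and 389 CPM) lay between, at 0.84 and 0.74.

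At 48 h in batch 1 CKI was at 336, 328 and 346 CPM and untreated cells at 314, 310.4 and 302 CPM, with 0.13 (adjusted p = 0.0739). N-MacOmtOspc, at 857, 799 and 834 CPM, was then above N-OmtOspc, at 597, 624 and 623 CPM. In batch 2 CKI was lower than untreated cells, 325, 337 and 338 against 382, 349.8 and 446 CPM, a log2 fold change of -0.24 ± 0.059 (SE, adjusted p = 0.00088), and -0.14 (adjusted p = 0.0239) without untreated replicate 3, the highest of its group. All 12 libraries of the single removals were between 1032 and 1218 CPM. Their log2 fold changes were 1.44 (N-Mac), 1.42 (N-Nme), 1.62 (N-Omt) and 1.54 (N-Tri), and differences among the 4 removals were not tested.

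The mixtures were compared with whole CKI directly, to ask which components the level of a gene depends on. ERRFI1 was higher than with CKI in all 12 comparisons, by 0.31 to 1.85, and HBEGF lower in all 12. The ERRFI1 value with OmtOspc at 24 h missed the threshold with only the 2 groups in the fit (0.65, adjusted p = 0.127). TGFA was lower in 11 and EGFR higher in 9 of 12. With N-OmtOspc 7 of the 9 genes differed from CKI at 24 h (58.7% of all genes) and 8 at 48 h (73.1%). N-MacOmtOspc gave 6 (35.7% of all genes) and 8 (67.2%), OmtOspc 2 (8.49%) and 8 (51.8%), and MacOmtOspc 4 (11.6%) and 8 (47.6%). In batch 2 each of the 4 single removals differed from CKI in 8 genes, where 69.4% (N-Mac), 71.5% (N-Nme), 76.3% (N-Omt) and 71.4% (N-Tri) of all genes were DE. All these comparisons within a set share the same CKI libraries.

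The largest difference from CKI was in BTC with N-OmtOspc at 24 h, -3.32 ± 0.40 (SE, adjusted p = 2.99e-06), and the next was in BTC at 48 h, -2.27 ± 0.28 (SE, adjusted p = 1.91e-07). TGFA with N-OmtOspc was -2.25 ± 0.22 (SE, adjusted p = 3.31e-07) at 24 h and -1.81 ± 0.068 (SE, adjusted p = 7.73e-16) at 48 h. For HBEGF the values with N-OmtOspc were -0.91 and -1.36. In batch 2 TGFA was lower than with CKI in all single removals, from -1.20 with N-Tri to -0.91 with N-Omt. HBEGF with N-Mac, at -0.10 (95% confidence interval -0.19 to -0.011, adjusted p = 0.0419), was close to the threshold and lost without any of the 3 CKI libraries or N-Mac replicate 1. EREG moved the other way, higher than with CKI in all 4, by 0.38 to 0.85. At 24 h EGFR with N-MacOmtOspc was 0.74 (adjusted p = 0.0341), and ERBB3 with N-OmtOspc was 0.62 (adjusted p = 0.00399). With library totals they were 0.69 (adjusted p = 0.0686) and 0.26 (adjusted p = 0.2). The EGFR value also missed the threshold without CKI replicate 2 or 3 or N-MacOmtOspc replicate 2 or 3 (0.59 to 0.74). Other calls against CKI that single libraries decided were those of MacOmtOspc at 24 h, ERBB3 (-0.60, missed without CKI replicate 1 or 3 or any MacOmtOspc library), TGFA (-0.71, missed without CKI replicate 1 or 2 or any MacOmtOspc library) and ERRFI1 (0.56, missed without CKI replicate 1 or MacOmtOspc replicate 3). In batch 1 at 48 h they were EGFR with N-OmtOspc (0.37, without CKI replicate 1) and, with OmtOspc, ERBB3 (-0.39, without OmtOspc replicate 1 or 3) and BTC (0.55, without CKI replicate 2 or OmtOspc replicate 3). In batch 2 BTC with N-Mac (-0.49) missed the threshold without CKI replicate 1 or 3 or N-Mac replicate 2 or 3. With all 54 libraries in 1 fit, calls against CKI were lost for AREG with N-Mac (-0.23, adjusted p = 0.24), N-Nme (-0.22, adjusted p = 0.252) and N-Omt (-0.29, adjusted p = 0.105) and for HBEGF with N-Mac (-0.11, adjusted p = 0.216). In batch 1 at 48 h that fit lost EGFR with N-OmtOspc (0.37, adjusted p = 0.0613) and EREG with MacOmtOspc (-0.38, adjusted p = 0.113). Without the 3 libraries that lay apart, ERBB3 with MacOmtOspc at 24 h was -0.54 (adjusted p = 0.062), while EREG with N-OmtOspc at 0.58 (adjusted p = 0.00983) and TGFA with OmtOspc at -0.58 (adjusted p = 0.00167) became DE.

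**Figure D3:**
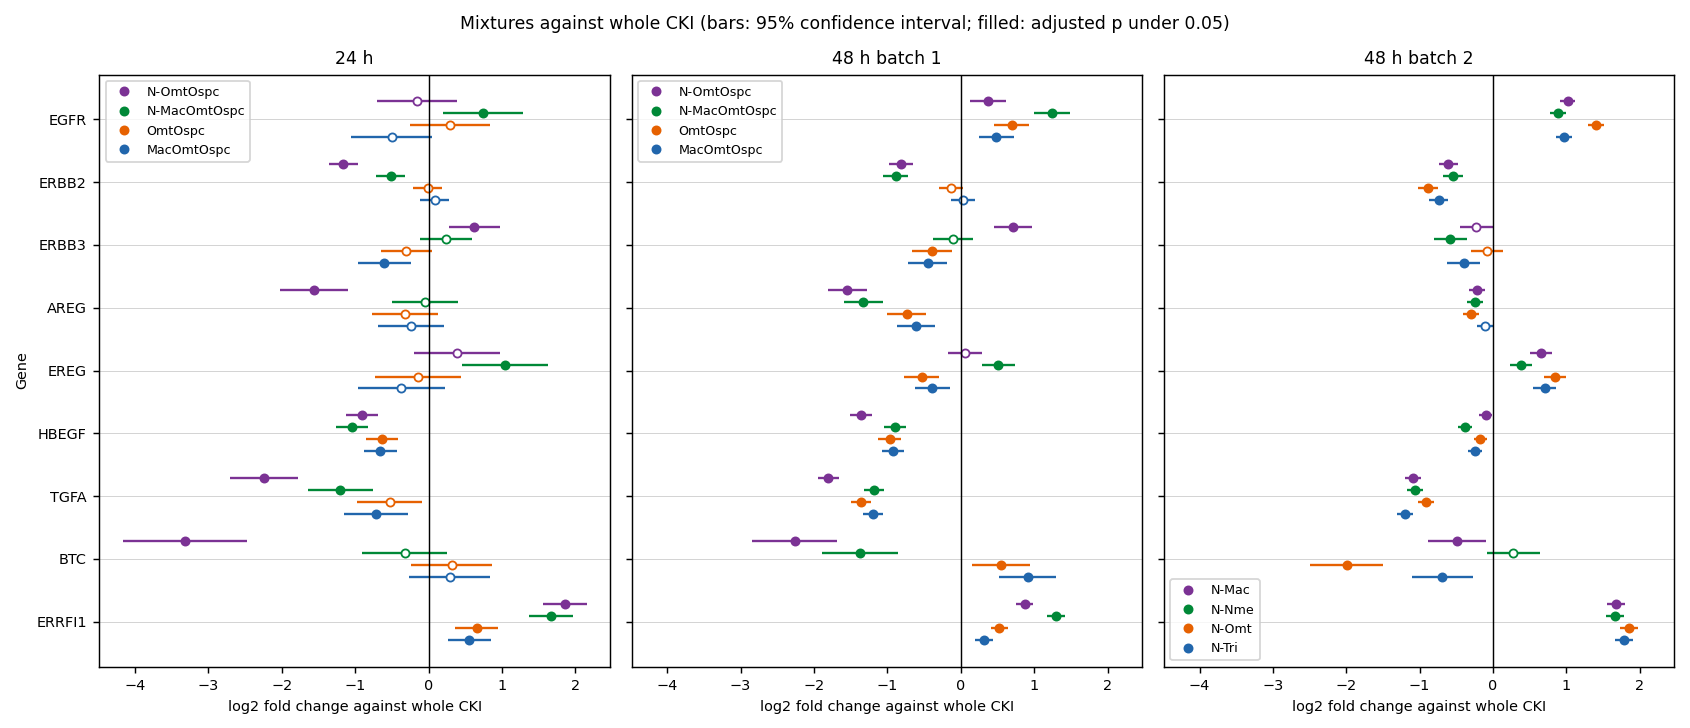
Log2 fold change of each gene against whole CKI (horizontal axis) in the mixtures of each set, with bars for 95% confidence intervals and filled points for DE values. ERRFI1 lay above 0 and HBEGF below 0 in all 12 comparisons, the latter least so with N-Mac at -0.10.

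Macrozamin was tested by adding it to OmtOspc and by removing it from N-OmtOspc. Between MacOmtOspc and OmtOspc, edgeR called 0 of the 9 genes at 24 h, with 1 at an unadjusted p under 0.05 and 0 called by DESeq2, and 0 of all 15191 genes tested by either tool (0%). At 48 h it called 0 members (1.98% of all genes), with 3 at an unadjusted p under 0.05, and DESeq2 called 1, ERRFI1 at -0.21 (adjusted p = 4.77e-05). With only the 2 groups in the fit, edgeR called ERRFI1 (-0.22, adjusted p = 0.00108), EGFR (-0.21, adjusted p = 0.0113) and TGFA (0.16, adjusted p = 0.0397). ERRFI1 was also called with a filter at a mean of 1 CPM (-0.22, adjusted p = 0.0445). The 95% intervals at 48 h were -0.33 to -0.093 for ERRFI1 and -0.45 to 0.037 for EGFR. Between N-MacOmtOspc and N-OmtOspc, 5 members differed at 24 h (47.6% of all genes), all higher without macrozamin. At 48 h 6 differed (51%), 5 higher and 1 lower. EGFR was higher without macrozamin at both times, by 0.90 ± 0.26 (SE, adjusted p = 0.00937) and 0.88 ± 0.12 (SE, adjusted p = 2.46e-06), and TGFA by 1.05 (adjusted p = 0.000718) and 0.62 (adjusted p = 1.88e-07). AREG was higher by 1.51 (adjusted p = 3.28e-05) at 24 h. At 48 h AREG was not DE, at 0.22 (adjusted p = 0.161), but DE at 0.43 (adjusted p = 9.84e-06) without N-MacOmtOspc replicate 2. With the replicate number as a block in the fit, BTC differed most at 24 h, by 2.99 (adjusted p = 6.08e-05). N-OmtOspc held only 6 counts of BTC there. In the same fit ERBB2 was 0.65 (adjusted p = 5.62e-05) at 24 h, and ERBB3 was -0.82 (adjusted p = 2.43e-05) at 48 h. BTC at 0.88 (adjusted p = 0.0687) and ERBB2 at -0.072 (adjusted p = 0.503) were not DE at 48 h.

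The change of a treatment effect from 24 to 48 h was tested in the 36 libraries of batch 1 as the difference of the log2 fold changes. It was DE in 5 of the 45 tests on the 9 genes. With CKI 0 members changed (0.391% of all genes), with 0 at an unadjusted p under 0.05 and 0 by DESeq2. With N-OmtOspc 1 changed (34.2% of all genes), ERRFI1, whose rise was smaller at 48 h. Its difference was -1.02 ± 0.15 (SE, adjusted p = 5.89e-06), and -0.66 (adjusted p = 0.000899) with library totals. N-MacOmtOspc had 3 (7.35% of all genes), ERBB2 with -0.59 ± 0.12 (SE, adjusted p = 0.00186), AREG with -1.01 ± 0.27 (SE, adjusted p = 0.0176) and BTC with -1.21 ± 0.32 (SE, adjusted p = 0.016). The value of AREG was -0.80 (adjusted p = 0.0552) without N-MacOmtOspc replicate 2 at 48 h, and that of BTC -1.09 (adjusted p = 0.056) without its replicate 3. OmtOspc had 1 (8.06%), TGFA with -1.04 ± 0.22 (SE, adjusted p = 0.00288). MacOmtOspc had 0 (2.59%), with 3 at an unadjusted p under 0.05 and 1 by DESeq2. Without the 3 libraries of 24 h that lay apart, 11 of the 45 were DE. The background was then 42.5% of all genes for N-OmtOspc, 14.2% for N-MacOmtOspc, 13.7% for OmtOspc and 8.63% for MacOmtOspc. The 5 above were still DE, and 6 were added, all with a negative difference. For ERBB2 and BTC, which fell, a negative difference is a deeper fall at 48 h. ERRFI1 was added with N-MacOmtOspc at -0.44 (adjusted p = 0.00469), with OmtOspc at -0.38 (adjusted p = 0.0127) and with MacOmtOspc at -0.32 (adjusted p = 0.0363). Over all libraries, mean ERRFI1 with these mixtures was 787.8, 391.7 and 365.5 CPM at 24 h and 829.7, 484.5 and 417.9 CPM at 48 h. In untreated cells it was 218.1 and 308.5 CPM, so the level with these mixtures did not fall. The other differences added were TGFA with MacOmtOspc at -0.73 (adjusted p = 1.17e-05), ERBB2 with OmtOspc at -0.35 (adjusted p = 0.0411) and HBEGF with N-OmtOspc at -0.29 (adjusted p = 0.0402).

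The CKI effect at 48 h differed between the batches in 3 members (13.8% of all genes). Batch 2 minus batch 1, the difference was -0.72 ± 0.13 (SE, adjusted p = 0.000973) for EREG, -0.43 ± 0.071 (SE, adjusted p = 0.000361) for HBEGF and -0.35 ± 0.088 (SE, adjusted p = 0.0107) for ERRFI1. HBEGF rose in both batches, while EREG and ERRFI1 had opposite signs in them. Mean untreated levels also differed, EREG at 9.48 and 27.2 CPM and TGFA at 61.9 and 96.5 CPM in batches 1 and 2, each scaled within its own set. With both batches in 1 fit and batch as a term, the CKI values were -0.027 (adjusted p = 0.838) for EREG, -0.036 (adjusted p = 0.627) for ERRFI1 and 0.47 for EGFR. In untreated cells of batch 1, 1 member differed between 48 and 24 h (1.57% of all genes), ERRFI1, at 0.40 ± 0.11 (SE, adjusted p = 0.049). The call was lost whenever any of the 6 untreated libraries was left out. Without the 3 treated libraries that lay apart, ERRFI1 was 0.40 (adjusted p = 0.000698) and HBEGF was DE too, at -0.27 (adjusted p = 0.0378), beside 8.38% of all genes.

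**Figure D4:**
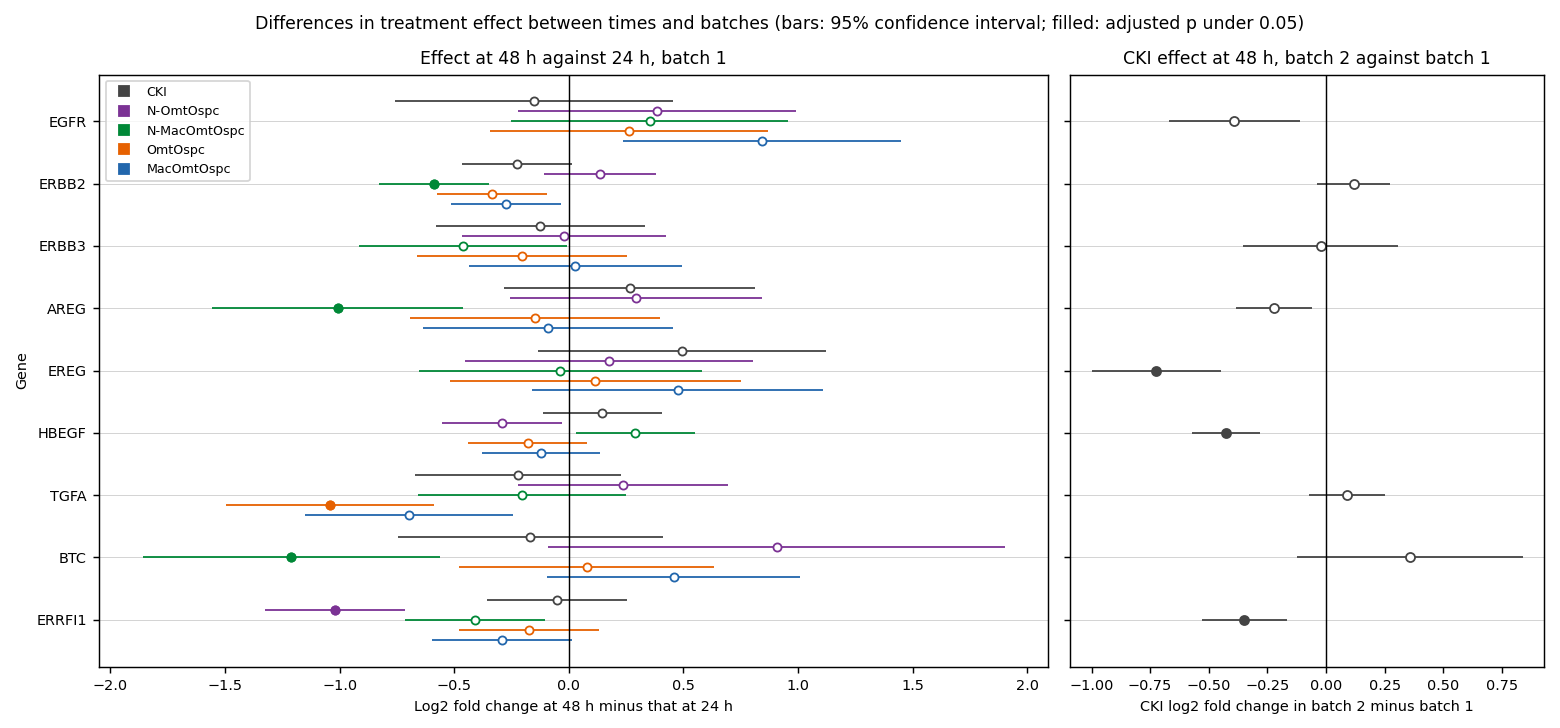
Difference of log2 fold changes for each gene (vertical axis), on the left 48 h minus 24 h for the 5 treatments of batch 1 and on the right batch 2 minus batch 1 for CKI at 48 h, with 95% confidence intervals and filled points for DE values. ERRFI1 with N-OmtOspc (-1.02) and EREG with CKI (-0.72) are among the filled points below 0.

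Other genes of the pathway were counted in a list of 55, with 50, 51 and 50 tested in the 3 sets. With CKI, 13 were higher and 3 lower at 24 h (median log2 fold change 0.23), 21 and 10 at 48 h in batch 1 (0.084) and 23 and 13 at 48 h in batch 2 (0.077). Of all genes tested, 15.3%, 27% and 32.3% were higher and 14.8%, 27% and 34.2% lower. More of the list were higher than lower in each set. Among the 14 genes that ERK signalling induces or that damp it, 5, 9 and 8 were higher and 2, 3 and 5 lower. DUSP5, a phosphatase of nuclear ERK, rose by 1.82, 1.63 and 0.94 (largest adjusted p = 1.63e-07).

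Of the other ligands, 3 of 6 were tested in each set, and 2, 1 and 2 were higher and 1 lower. NRG2, a neuregulin, rose by 0.90, 0.93 and 0.70 (largest adjusted p = 0.0387), and NRG1, another neuregulin, named after its values were seen, fell by 0.85, 0.51 and 0.49 (largest adjusted p = 0.0167). Of 4 genes for ligand release, 2, 3 and 2 were higher and 0, 1 and 1 lower. RHBDF1, an inactive rhomboid that guides the protease ADAM17, rose by 0.70, 0.97 and 0.91 (largest adjusted p = 0.0234), and the protease gene ADAM10, also named after its values were seen, fell at 48 h by 0.57 and 0.45 (largest adjusted p = 7.96e-07). Of 8 adaptors, 2, 3 and 5 were higher and 0 lower, among them GRB2, which links receptors to RAS, by 0.41, 0.20 and 0.31 (largest adjusted p = 0.023). Of 10 RAS, RAF, MEK and ERK genes, 1, 2 and 2 were higher and 0, 2 and 3 lower, with MAP2K1, the MEK1 kinase gene, higher by 0.68, 0.46 and 0.36 (largest adjusted p = 2.82e-05). Of the 12 genes for receptor decay and inhibition, 1, 3 and 4 were higher and 0, 3 and 3 lower, and none was DE in the same direction in all 3 sets. ERBB4 was too low to be tested.

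The log2 fold changes of the 9 genes over the 15 treated groups were also set beside those of 9781 other genes (9782 for BTC) with a mean of at least 10 CPM, as a description only, since groups of a set share untreated libraries. The most similar gene was CDCP1 for EGFR (Pearson's r = 0.906), COG7 for ERBB2 (0.971), RNF167 for ERBB3 (0.943) and RECK for AREG (0.936). It was IL1A for EREG (0.889), DEGS1 for HBEGF (0.915), HECTD3 for TGFA (0.965), DIS3L2 for BTC (0.965) and RPL34 for ERRFI1 (0.962). Among the 9 genes themselves, HBEGF and TGFA (0.811), ERBB2 and BTC (0.809) and AREG and TGFA (0.791) were most alike, and ERBB2 and ERRFI1 (-0.755) most opposed. The neighbours AREG and BTC were also alike (0.778), while EREG had -0.264 with AREG and -0.538 with BTC.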

How the data were processed

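Poly(A) RNA of MDA-MB-231 cells was sequenced in 54 libraries, and the authors deposited unnormalized counts of reads per gene for 27978 genes, with no replicates pooled. The submitters' processing notes name hg19, FastQC 0.11.4, Trim Galore 0.3.7, STAR 2.5.3a, Subread 1.5.2 with featureCounts, and edgeR 3.22.3. Groups, times and batches were taken from the sample titles. All columns of the table were mapped to a sample.

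From the counts, genes were filtered with filterByExpr, libraries were scaled by TMM and groups were compared with edgeR 4.0.16 (glmQLFit and glmQLFTest, R 4.3.3), with 1 fit for each set of 18 libraries (24 h, 48 h in batch 1, 48 h in batch 2). Differences between times were fitted on the 36 libraries of batch 1 and between batches on the 12 CKI and untreated libraries of 48 h. Benjamini-Hochberg adjustment ran over all genes tested, a gene was called at an adjusted p under 0.05, and standard errors are the log2 fold change divided by the square root of F. CPM were computed with the TMM factors. The scripts were tested on simulated data, where 80%, 83.5% and 87.5% of 200 genes changed 2-fold were recovered for CKI against untreated cells in the 3 sets (14850, 15109 and 14848 genes). Of the unchanged genes, 8, 15 and 9 were called. The simulated counts had a fixed spread, as many rises as falls and no libraries that lay apart. These shares are thus a check of the scripts and not the power of the real data. With 3 libraries a group, an exact permutation test cannot go below p = 0.1, so none was run.

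The 9 genes, the list of 55 pathway genes and the markers were chosen with earlier results of these data known. All 9 genes are named. Of the pathway list, the gene of each class with the largest mean change over the 3 CKI comparisons was named among those called in all 3 in the same direction, and the similar genes were the nearest by Pearson's r. Alternatives were RLE size factors, library totals, DESeq2 1.42.0, other filters, other sets of libraries, a replicate block, leaving out each library, and a minimum log2 fold change of 1.

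Replicate numbers were not used to pair samples, since in no comparison were all 3 correlations of same-numbered deviations over 0.1. Depth limits the precision of BTC and ERBB3 most, and intervals from counts cover counting error only. Genome coordinates are those of GRCh38.p14, and no coordinates were converted.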

Additional observations from a re-analysis of the deposited data

Results flagged for a closer look

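The effect of a treatment differed between groups, by a test of the difference itself, in 8 results. Between 48 and 24 h in batch 1, ERRFI1 with N-OmtOspc differed by -1.02 (adjusted p = 5.89e-06), TGFA with OmtOspc by -1.04 (adjusted p = 0.00288), and with N-MacOmtOspc ERBB2 by -0.59 (adjusted p = 0.00186), AREG by -1.01 (adjusted p = 0.0176) and BTC by -1.21 (adjusted p = 0.016). OmtOspc and N-MacOmtOspc each hold 1 of the 3 libraries of 24 h that lay apart. Between batches 2 and 1 at 48 h, the CKI effect differed by -0.72 for EREG (adjusted p = 0.000973), by -0.43 for HBEGF (adjusted p = 0.000361) and by -0.35 for ERRFI1 (adjusted p = 0.0107). Each batch has its own untreated libraries, and the cause of these differences was not tested.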

How the results depend on the processing

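Of 342 log2 fold changes of the 9 genes, 342 kept their call or lack of one with RLE size factors, 330 with the DESeq2 Wald test, 329 with no filter beyond 1 count and 327 with library totals alone. With library totals HBEGF with N-OmtOspc at 24 h turned from 0.29 to -0.0083, and with both batches in 1 fit EREG with CKI turned from 0.36 in batch 1 to -0.027, and the cause was not tested. Of the 1953 values that were called in neither fit, 80 changed sign. With only the 2 groups compared in the fit, 264 of 278 kept their call or lack of one, 3 lost and 11 gained a call. With all 54 libraries in 1 fit, 258 of 279 did, 13 lost and 8 gained a call, and the calls against untreated cells were 37, 36 and 36 instead of 33, 38 and 41. Without the 3 libraries that lay apart, 138 of 153 did, 2 lost and 13 gained a call.

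With a change of 1 or more on the log2 scale also required, the calls left were 13 of 33, 14 of 38 and 17 of 41 against untreated cells (24 h, 48 h batch 1, 48 h batch 2), 4 of 7, 4 of 8 and 2 of 9 for CKI, and 12 of 24, 11 of 38 and 10 of 32 between treatments. The 5 differences between times became 8 with DESeq2 and 11 without the 3 libraries that lay apart. The 3 between batches became 5 with no filter, and the 1 in untreated cells became 2 with DESeq2, 0 with no filter and 2 without the 3 libraries, and the cause was not tested.

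Leaving out 1 library at a time, calls against untreated cells ranged from 27 to 35, 37 to 40 and 40 to 43, for CKI from 6 to 7, 8 to 9 and 9 to 9, and between treatments from 21 to 25, 36 to 40 and 30 to 33. Differences between times ranged from 5 to 8, between batches from 3 to 4 and in untreated cells from 0 to 1. Of 2376 such values, 72 lost and 21 gained a call.

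With the replicate number as a block, 340 of 342 kept their call, and TGFA with N-Nme against untreated cells (0.12, adjusted p = 0.0482) and ERBB3 with N-Mac against CKI (-0.23, adjusted p = 0.0406) gained one. Counts of calls against untreated cells were 33 at 24 h under the block, as without it. The samples share only a number.

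The depth limits BTC most, with 2 to 107 counts a library. The untreated libraries are shared by all comparisons of a set, and the single removals were given for 48 h in batch 2 only. Beside untreated cells, only CKI was in both batches.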
